A study of Arabidopsis thaliana with 5 samples.

Results

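JASMONATE ZIM-DOMAIN proteins 1 to 10 (JAZ1 to JAZ10) are repressors of the jasmonate pathway in Arabidopsis thaliana, and their 10 genes were taken by locus from the 27444 protein-coding genes of the nuclear chromosomes. For each gene, every deposited region of BLUEJAY (BLJ) or JACKDAW (JKD) binding with at least 1 bp in a window from 3000 bp below to 3000 bp above the gene was read out, which gave 35 BLJ regions and 20 JKD regions. The rule goes by the names of the genes, and the family was picked with earlier results of these data known.

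Jasmonate is a hormone of wounding, defence, fertility and root growth inhibition. Without it, JAZ proteins hold MYC-type transcription factors and recruit the adaptor NINJA and the corepressor TOPLESS through their TIFY motif. When jasmonoyl-isoleucine is present, the F-box protein COI1 binds the Jas motif of a JAZ protein and sends it for degradation, and the freed MYC factors then induce many genes, JAZ genes among them.

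The study used chromatin immunoprecipitation followed by sequencing (ChIP-seq) on whole roots of Columbia plants grown on plates without any added compound. The groups were 2 libraries of plants with BLJ fused to yellow fluorescent protein, which is present in the ground tissue, 2 libraries of plants with the JKD fusion, which is present in the ground tissue and the quiescent centre, and 1 library of wild-type plants that carried no fusion and went through the same antibody step. BLJ and JKD are C2H2 zinc finger transcription factors that act in the layers forming cortex and endodermis. The labels name neither the promoters behind the fusions nor the age of the plants. Roots were fixed for 15 min, and an antibody against GFP recovered the fusion protein with its DNA.

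Each factor had a single list of regions made from both replicates, with 24229 BLJ and 21985 JKD regions. Each region carried 2 densities, 1 per replicate in an order that is not given, called here the first-listed and the second-listed density, and an irreproducible discovery rate (IDR), a score that is meant to be low for regions found reproducibly. The deposited IDR did not simply follow the likeness of the 2 ranks: the BLJ region over JAZ2, with ranks 15235 and 174, had an IDR of 0.0330, and the BLJ region over JAZ4, with ranks 8325 and 7970, had 0.243. A percentile below is the share of regions of the same list with a lower density, and a rank of 1 is the densest region. Densities of different lists were not compared, the read depth of each library is unknown, and no wild-type table was analysed here. The replicate densities of a list went together only in part, with a Spearman correlation over regions of 0.248 in the BLJ list and 0.407 in the JKD list, so each density is given by itself. With 1 list per factor there was no replicate test, and counts are set beside the same counts over all genes. The factors may share the wild-type control, since its use is not given.

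All 10 JAZ genes were overlapped by a region of each factor. A region within 3000 bp says little, because that window held a BLJ region at 89.9% of all protein-coding genes and a JKD region at 87.6%. Overlap of the gene itself was less common among all genes, at 71.0% for BLJ and 65.3% for JKD. Most JAZ genes stood high in the lists by the second-listed density. By that value 8 of 10 JAZ genes reached the top 10% of the BLJ list within 3000 bp, beside 22.2% of all genes, and 6 of 10 reached the top 10% of the JKD list, beside 20.0%. Of these, 6 genes did so in both lists (JAZ1, JAZ2, JAZ6, JAZ7, JAZ9 and JAZ10), beside 11.9% of all genes. JAZ4 and JAZ8 had the lowest second-listed percentiles of the family in both lists.

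**Figure D1:**
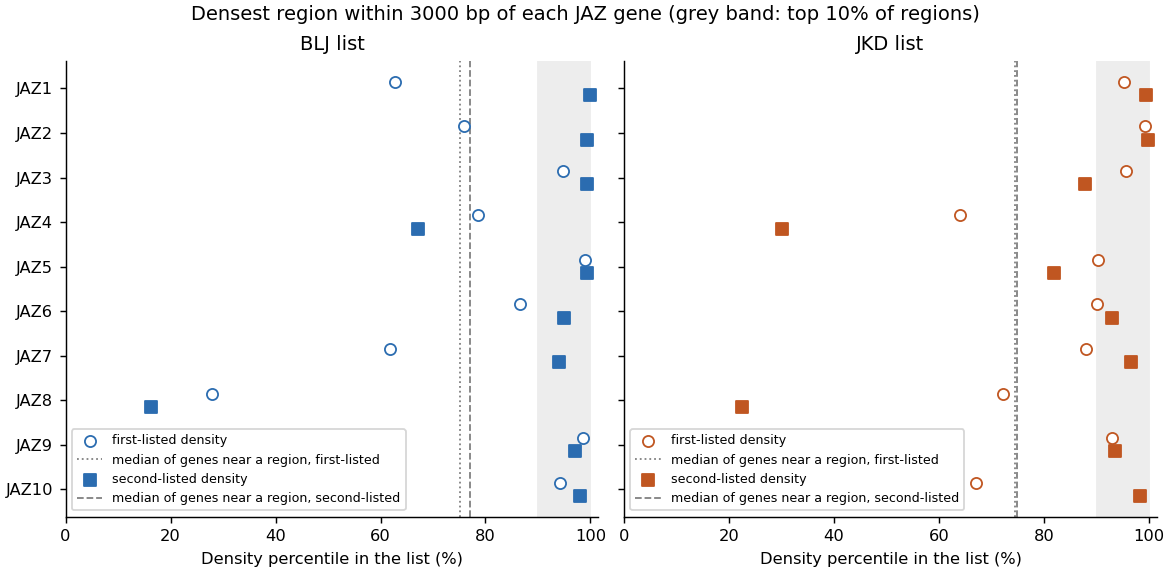
Density percentile (x axis, in percent) of the densest region within 3000 bp of each JAZ gene (y axis), with BLJ on the left and JKD on the right. Open circles are first-listed and filled squares second-listed densities, vertical lines are medians over all genes near a region, and the grey band is the top 10% of regions. JAZ4 and JAZ8 lie at 67.1 and 16.3 by second-listed density in the BLJ list and at 30.1 and 22.4 in the JKD list, and the other 8 genes lie at 81.9 or above in both.

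JAZ1 and JAZ2, known as TIFY10A and TIFY10B, are closely related repressors that bind COI1 in the presence of the hormone. By second-listed density they held the 2 densest regions of the family in the JKD list, while in the BLJ list JAZ1 came first and JAZ2 after JAZ5 and JAZ3. JAZ1 (AT1G19180) was covered whole by a BLJ region on chromosome 1 (TAIR9, 6618570 to 6626520) with densities of 1.67 and 3.42. By second-listed density this region had rank 31 in the BLJ list, while its first-listed density had rank 9039. The JKD region over JAZ1 (6618254 to 6631066) had densities of 1.31 and 2.83, with ranks 1023 and 103 in its list. Both JAZ1 regions are long, 7951 bp and 12813 bp, and are not particular to the gene. The BLJ region also overlapped the protein-coding genes AT1G19170, AT1G19190 and AT1G19200, and the JKD region reached on to AT1G19210 and ARF19 (AT1G19220), an auxin response factor.

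JAZ2 (AT1G74950) was covered whole by regions that overlapped no other gene. The BLJ region on chromosome 1 (28147708 to 28151599) had densities of 1.53 and 2.58, ranks 15235 and 174. The JKD region (28147600 to 28151796) had densities of 1.46 and 3.21, ranks 182 and 51, and its IDR of 0.000945 ranked 31 of 21985 from the lowest in the JKD list. JAZ2 was in the top 1% of the JKD list by each density, where 2.02% of all genes were by the first-listed one, and in the top 1% of the BLJ list by the second-listed density only. Its best first-listed BLJ percentile within 3000 bp was 75.9, and that of the region over the gene was 37.1. A second JKD region, 1259 bp away and over AT1G74940, was also high in the list by first-listed density (1.45, rank 192).

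JAZ5 and JAZ6, known as TIFY11A and TIFY11B, form the next pair of related repressors. JAZ5 (AT1G17380) had a BLJ region that was high by both densities and of low IDR. That region lay over the last bases of the higher-coordinate end of the gene and ran on into the pseudogene AT1G17390 (chromosome 1, 5957485 to 5958832), with densities of 2.54 and 2.66, ranks 264 and 151, percentiles 98.9 and 99.4, and an IDR of 0.0112. A wider BLJ region over the rest of JAZ5 (5954229 to 5957326) had densities of 1.87 and 1.45. A single JKD region spanned the gene (5954200 to 5959661) with densities of 1.25 and 1.70, at percentiles 90.3 and 81.9. JAZ6 (AT1G72450) was covered whole in both lists. Its BLJ region (chromosome 1, 27271667 to 27277251) had densities of 1.61 and 1.89, at percentiles 51.7 and 94.9. Its JKD region (27271559 to 27278162) had densities of 1.25 and 1.90, at percentiles 90.0 and 93.0, with an IDR of 0.00544. These JAZ5 and JAZ6 regions, apart from the short BLJ region at the end of JAZ5, also overlapped a neighbouring gene, UBP1B (AT1G17370) or EDA25 (AT1G72440).

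JAZ3, JAZ4 and JAZ9 are known as TIFY6B, TIFY6A and TIFY7. JAZ3 (AT3G17860), the repressor altered in the jasmonate-insensitive mutant jai3, had a BLJ region over its lower-coordinate end (chromosome 3, 6118872 to 6120997) with densities of 1.79 and 2.61, ranks 5322 and 166. A second BLJ region inside the gene (6121521 to 6122836) was low, with densities of 1.30 and 1.30. The JKD list had a single region there (6118638 to 6122877) that covered 95.0% of JAZ3 with densities of 1.32 and 1.78, percentiles 95.6 and 87.9, and an IDR of 0.0102. JAZ9 (AT1G70700) was overlapped by a BLJ region (chromosome 1, 26654114 to 26656690) with densities of 1.62 and 1.82 and by a JKD region (26654284 to 26656869) with densities of 1.28 and 1.92. These regions had percentiles of 52.9 and 93.1 for BLJ, and of 92.9 and 93.5 for JKD. JAZ9 was the only member with all 4 values in the top 10% within 3000 bp, beside 2.04% of all genes, but its highest BLJ values came from regions over its neighbours. A region over GH9B1 (AT1G70710), 933 bp away, had a first-listed density of 2.46 (rank 331), and a region over HWI1 (AT1G70690), 1462 bp away, had a second-listed density of 2.05 (rank 712). Counting overlapping regions only, no member had all 4 values in the top 10%, beside 0.455% of all genes.

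JAZ4 (AT1G48500) differed from its relatives JAZ3 and JAZ9. Its BLJ region (chromosome 1, 17931332 to 17931932) covered 16.6% of the gene at the lower-coordinate end, with densities of 1.69 and 1.47, percentiles 65.6 and 67.1. Its JKD region (17934553 to 17935557) covered 3.36% at the other end and lay mainly over AT1G48510, with densities of 1.13 and 1.40, percentiles 64.0 and 30.1. These regions lay 2621 bp apart, and JAZ4 was the only member where no BLJ and JKD regions overlapped each other. At the other 9 genes they did, beside 80.1% of all genes within 3000 bp, and with regions over the gene itself, beside 55.7%. With the stricter demand of 50% of both regions the count was also 9, beside 68.0% of all genes.

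JAZ7 and JAZ8, known as TIFY5B and TIFY5A, are the shortest members, and JAZ8 is known to resist degradation because it lacks the usual degron. JAZ7 (AT2G34600) was overlapped by a BLJ region (chromosome 2, 14572610 to 14573925) with densities of 1.42 and 1.86, ranks 20096 and 1448, and an IDR of 0.219. The JKD region over JAZ7 (14572205 to 14576720) had densities of 1.23 and 2.08, ranks 2640 and 763, and an IDR of 0.00785. JAZ8 (AT1G30135) had the lowest values of the family by second-listed density. Its only BLJ region (chromosome 1, 10596210 to 10596732) had densities of 1.49 and 1.21, percentiles 27.9 and 16.3. Its only JKD region (10596196 to 10597168) had densities of 1.16 and 1.37, percentiles 72.2 and 22.4. No other region lay within 3000 bp of JAZ8, and regions covered 7.48% (BLJ) and 13.9% (JKD) of that window.

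JAZ10 (AT5G13220), known as TIFY9, is a repressor with splice forms that escape degradation. Its BLJ region (chromosome 5, 4217949 to 4220727) had densities of 2.06 and 2.17, ranks 1424 and 482, so both replicates placed it in the top 10% of the list. The JKD region (4217786 to 4225093) had densities of 1.14 and 2.27, ranks 7264 and 391, and an IDR of 0.109. It ran on over AT5G13230 and AT5G13240, and its first-listed density lay at percentile 67.0. JAZ10 therefore combined a high BLJ region by each density with a JKD region that was high by the second-listed density alone.

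**Figure D2:**
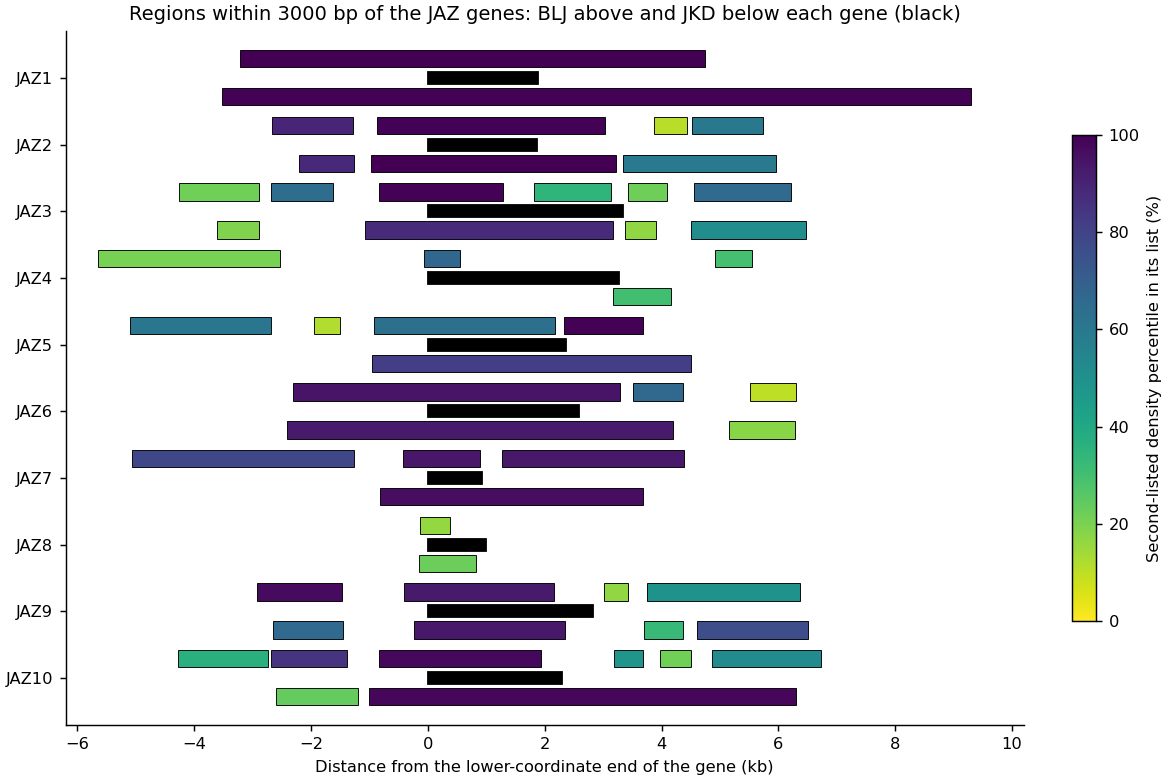
Regions within 3000 bp of each JAZ gene, drawn to scale against the distance from the lower-coordinate end of the gene in kb, with BLJ regions above and JKD regions below the gene in black. Colour gives the second-listed density percentile in the list. Dark regions run across JAZ1, JAZ2 and JAZ6, and JAZ4 and JAZ8 have only short ones over the gene. The direction of transcription was not used here, so neither side can be called the promoter.

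The JAZ genes were covered more fully than genes in general. BLJ regions covered a median of 89.0% of a JAZ gene, against 38.5% over all genes, and 8 of 10 JAZ genes were covered to at least 75%, beside 24.9% of all genes. JKD regions covered a median of 100% of a JAZ gene, against 25.0% over all genes, and 9 of 10 reached 75%, beside 19.0%. JAZ4 and JAZ8 were the genes under 75% in the BLJ list, and JAZ4 alone was so in the JKD list. With 3000 bp on either side, the medians were 74.1% for BLJ, against 32.5% over all genes, and 68.6% for JKD, against 25.9%. The region covering most of the gene had a median width of 2678 bp for BLJ over the 10 members, against 1406 bp over the 19495 genes overlapped, and 4378 bp for JKD, against 1259 bp over 17921 genes.

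Width moves with the density. Over all regions the Spearman correlation of width with the second-listed density was 0.456 in the BLJ list and 0.429 in the JKD list, and with the first-listed density 0.139 and 0.325. When the regions of a list were split by width into 10 classes of equal size and ranked within their class, 7 of 10 JAZ genes were in the top 10% by second-listed BLJ density, beside 20.1% of all genes, and 3 of 10 by second-listed JKD density, beside 18.0%. By first-listed density the counts were 4 of 10 for BLJ, beside 19.9%, and 4 of 10 for JKD, beside 18.7%. The median second-listed percentile of the members was then 95.4 for BLJ, against 75.1 over all genes near a region, and 78.1 for JKD, against 72.7. The part of width in the JKD values was not tested further. This ranking was chosen after seeing the data.

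The first-listed and second-listed densities placed the family differently. In the BLJ list the median best percentile within 3000 bp was 82.5 by first-listed density, against 75.2 over the 24662 genes near a region, and 97.5 by second-listed density, against 77.1. In the JKD list the medians were 90.2 by first-listed density, against 74.5 over the 24036 genes near a region, and 93.3 by second-listed density, against 74.9. By first-listed density, 4 of 10 JAZ genes were in the top 10% of the BLJ list (JAZ3, JAZ5, JAZ9 and JAZ10), beside 19.6% of all genes, and 6 of 10 in that of the JKD list (JAZ1, JAZ2, JAZ3, JAZ5, JAZ6 and JAZ9), beside 19.4%. Only JAZ5 and JAZ10 kept that place in the BLJ list with regions that overlapped the gene, where 8.02% of all genes did, and the median percentile was then 57.8, against 58.1 over all genes overlapped. For JAZ5 the overlapping BLJ region in the top 10% by each density covered 1.15% of the gene. The BLJ region over 92.2% of JAZ5 had percentiles of 85.2 and 63.5. By second-listed density, the counts with overlapping regions were the same as within 3000 bp, at 8 of 10 for BLJ, beside 11.1% of all genes, and 6 of 10 for JKD, beside 9.83%. The 6 genes that were high in both lists by that value remained so with overlapping regions, beside 5.38% of all genes. By first-listed JKD density, overlapping regions also gave 6 of 10, beside 8.48%. Within 3000 bp, the BLJ standing of the family rests on the second-listed density for JAZ1, JAZ2, JAZ6 and JAZ7, and its JKD standing is shared by both densities for JAZ1, JAZ2, JAZ6 and JAZ9. With overlapping regions the BLJ standing of JAZ3 and JAZ9 also rests on it, as their first-listed percentiles were then 78.0 and 52.9. The first-listed BLJ value of JAZ3 within 3000 bp, at percentile 94.8, came from a region 1215 bp away over TDX (AT3G17880). In the top 1% of a list by second-listed density were 4 members for BLJ (JAZ1, JAZ2, JAZ3 and JAZ5), beside 2.43% of all genes, and 2 for JKD (JAZ1 and JAZ2), beside 2.36%. In the top 5% were 6 members by second-listed BLJ density, beside 11.7% of all genes, and 2 by the first-listed one, beside 9.71%. For JKD these counts were 4 by second-listed density, beside 10.7%, and 3 by the first-listed one, beside 9.97%. Among the 18304 genes as long as JAZ genes (923 to 3338 bp), the top 10% by second-listed density held 22.9% for BLJ and 20.4% for JKD, and by first-listed density 18.9% and 19.5%, close to the shares of all genes.

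**Figure D3:**
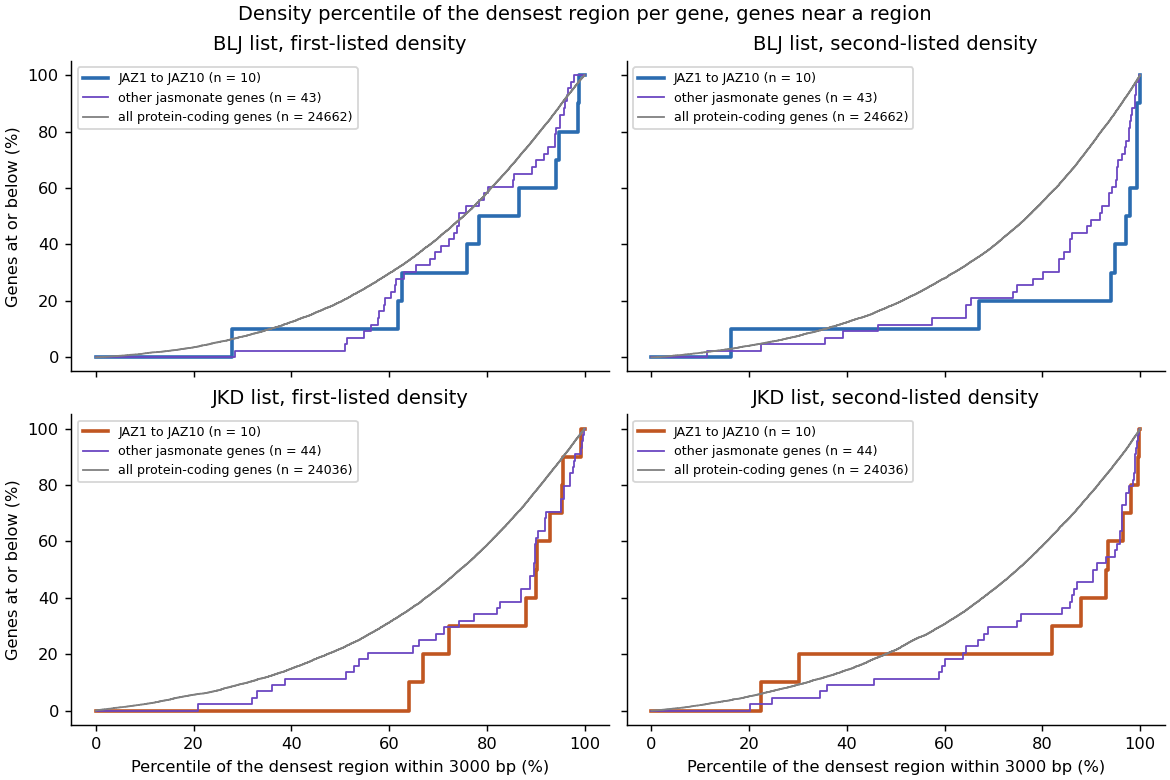
Cumulative share of genes (y axis, in percent) at or below each density percentile of their densest region within 3000 bp (x axis), for the JAZ genes, the other jasmonate genes and all protein-coding genes near a region, with BLJ in the upper row and JKD in the lower. By second-listed density the JAZ median lies at 97.5 (BLJ) and 93.3 (JKD), to the right of the medians of all genes, 77.1 and 74.9.

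The deposited IDR was read against the same limits in each list. A JKD region of IDR at or below 0.05 lay within 3000 bp of 7 of 10 JAZ genes, beside 32.9% of all genes, and at or below 0.01 of 5 of 10, beside 8.95%. The 5 genes were JAZ1, JAZ2, JAZ6, JAZ7 and JAZ9, and JAZ3 and JAZ5 completed the 7. JAZ4, JAZ8 and JAZ10 had lowest JKD values of 0.157, 0.175 and 0.109. A BLJ region of IDR at or below 0.05 lay near 2 of 10 JAZ genes, JAZ2 (0.0330) and JAZ5 (0.0112), beside 17.7% of all genes. At a limit of 0.1 the BLJ count was 7 of 10, beside 46.4%, with JAZ1, JAZ3, JAZ6, JAZ7 and JAZ10 added, while the JKD count stayed at 7 of 10, beside 56.2%. BLJ regions of IDR at or below 0.01 were near none of the 10, beside 0.568% of all genes. Overlapping regions of both factors that each had an IDR at or below 0.1 were found at 5 of 10 JAZ genes, beside 18.8% of all genes.

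**Figure D4:**
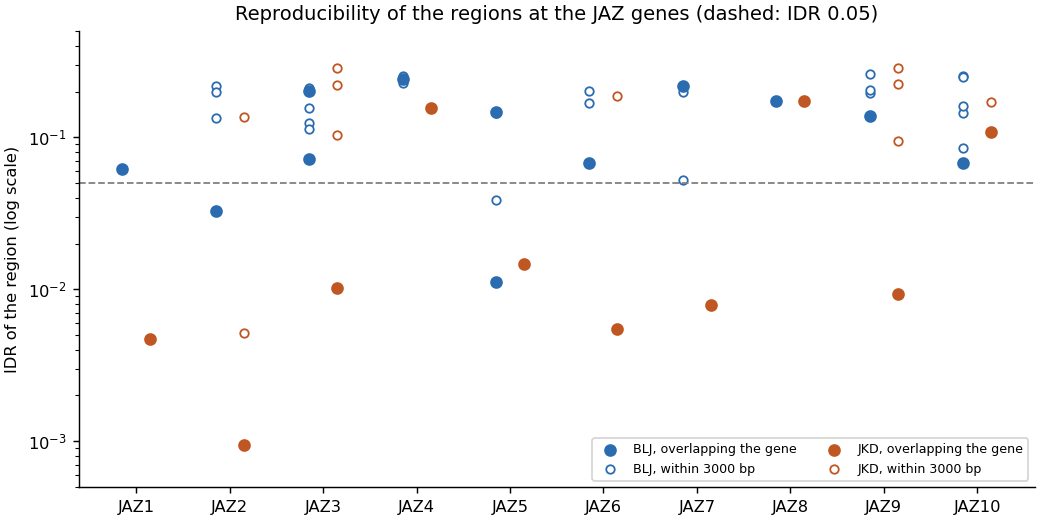
IDR of every region within 3000 bp of each JAZ gene, on a log scale, with BLJ in blue and JKD in orange, filled where the region overlaps the gene. The dashed line marks 0.05. JKD regions over JAZ1, JAZ2, JAZ6, JAZ7 and JAZ9 lie below 0.01, and the lowest BLJ value is 0.0112 at JAZ5.

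The window limit itself left out dense regions. The farthest BLJ region inside it lay 2913 bp from JAZ6 (densities 1.38 and 1.18), and the nearest outside lay 3007 bp from JAZ1 (6626675 to 6631444 on chromosome 1, densities 1.62 and 1.95). The farthest JKD region inside lay 2891 bp from JAZ3 (densities 1.09 and 1.35), and the nearest outside lay 3024 bp from JAZ2 (28143101 to 28145550 on chromosome 1) with densities of 1.41 and 2.82, percentiles 98.5 and 99.5.

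Genes around the JAZ repressors in the pathway also carried dense regions. Of 46 other jasmonate genes, 43 lay within 3000 bp of BLJ regions and 44 within 3000 bp of JKD regions, which is near the background. By second-listed density, 22 of 46 were in the top 10% of the BLJ list and 24 of 46 in that of the JKD list, 19 of them in both, beside 22.2%, 20.0% and 11.9% of all genes. By first-listed density the counts were 14 and 18 of 46, beside 19.6% and 19.4%. The list was drawn from textbook knowledge of the pathway, but with earlier results of these data known. Neighbours in it share regions, as do AOC1, AOC2 and AOC3 in the JKD list, and PPD1 and PPD2 in both.

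Among the partners of JAZ proteins, MYC2 (AT1G32640), the main transcription factor they hold, ranked beside the densest JAZ genes by second-listed density, between JAZ1 and JAZ2 in each list. Its BLJ region (chromosome 1, 11797702 to 11801693) had densities of 1.80 and 3.04, with rank 63 by second-listed density, and its JKD region (11797832 to 11801541) had densities of 1.38 and 3.03, with rank 73. MYC3 (AT5G46760), a close relative, had best percentiles of 95.7 (first-listed) and 97.1 (second-listed) in the BLJ list, and of 91.9 and 98.8 in the JKD list. The JKD values came from different regions (chromosome 5, 18972961 to 18973399 and 18978930 to 18981046). Only 1 of 4 regions in each list overlapped MYC3, so these JKD values cannot both lie over the gene. MYC5 (AT5G46830) was high only by first-listed JKD density, at 97.1. MYC4 was in the top 5% by none of the 4 values. TPL (AT1G15750), the corepressor TOPLESS, had second-listed percentiles of 99.1 for BLJ and 99.6 for JKD, and MED25 (AT1G25540), a Mediator subunit that binds MYC2, had 98.9 and 95.9. Both MED25 values came from regions within 3000 bp that did not overlap MED25 itself. Percentiles of the other partners are likewise those of the densest region within 3000 bp, which need not overlap the gene. NINJA (AT4G28910), the adaptor, was high by first-listed BLJ density alone, at 97.3. COI1, the receptor, was in the top 5% by none, and its highest value was 92.5 by first-listed BLJ density. JAM1 (AT2G46510) and JAM2 (AT1G01260), bHLH repressors that compete with MYC2, had second-listed BLJ percentiles of 95.1 and 97.8, and JAM1 reached 99.8 by first-listed JKD density. Their second-listed JKD percentiles were 98.9 and 68.9. JAM3 (AT4G16430) was in the top 10% by none of the 4 values. Of these 3 genes, 2 were in the top 10% by second-listed BLJ density, beside 22.2% of all genes, and 1 by second-listed JKD density, beside 20.0%. By first-listed density the counts were 1 and 2 of 3, beside 19.6% and 19.4%.

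Enzymes that make the hormone were often in the top 10% by second-listed density, 9 of 14 in the BLJ list, beside 22.2% of all genes, and 11 of 14 in the JKD list, beside 20.0%. AOC1, AOC2 and AOC3 count as 3 of these 11 through 1 shared region. By first-listed density the counts were 3 of 14 for BLJ, beside 19.6%, and 4 of 14 for JKD, beside 19.4%. ACX1 (AT4G16760), an acyl-CoA oxidase, had best percentiles of 96.4 and 99.1 in the BLJ list, first-listed before second-listed, and of 99.7 and 98.9 in the JKD list. JAR1 (AT2G46370), which joins jasmonate to isoleucine, reached 97.9 and 98.3 in the BLJ list, with 99.2 and 95.2 in the JKD list, and OPR3 (AT2G06050), a reductase, reached 94.9 and 97.7 in the BLJ list, with 95.1 and 99.2 in the JKD list. The allene oxide synthase AOS (AT5G42650) had second-listed percentiles of 98.2 and 97.8, and its first-listed percentiles were 57.8 and 33.0. Second-listed JKD percentiles of 95 or above were also found at LOX4 (97.2) and LOX6 (96.3), both lipoxygenases, at OPCL1 (99.3), a CoA ligase, and at the neighbouring cyclase genes AOC1, AOC2 and AOC3 (96.2, from a shared region). AOC1 had no BLJ region within 3000 bp, and AOC2 and AOC3 shared a BLJ region at 95.2 that did not overlap AOC2.

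Of 9 genes that inactivate the hormone, 3 were in the top 10% by second-listed BLJ density, beside 22.2% of all genes, and 6 by second-listed JKD density, beside 20.0%. By first-listed density 1 of 9 was in the top 10% of the BLJ list, beside 19.6%, and 4 of 9 in that of the JKD list, beside 19.4%. CYP94B3 (AT3G48520) and CYP94C1 (AT2G27690), which oxidise jasmonoyl-isoleucine, had second-listed percentiles of 99.0 and 97.0 in the BLJ list, with 98.6 and 98.9 in the JKD list, and CYP94B1 had 83.4 and 95.8. ILL6, an amidohydrolase, had 96.2 and 97.1. Of 6 output genes, 2 were in the top 10% by second-listed BLJ density, beside 22.2% of all genes, and none in that of the JKD list, beside 20.0%. By first-listed density 1 of 6 was in the top 10% of the BLJ list, beside 19.6%, and none in that of the JKD list, beside 19.4%. VSP1 (AT5G24780), a storage protein gene, had a second-listed BLJ percentile of 98.0, and the defensin gene PDF1.2 (AT5G44420) reached 96.7 by first-listed BLJ density and had no JKD region. ERF1 (AT3G23240), an ethylene response factor, had no BLJ region. The thionin gene THI2.1 (AT1G72260) was the only one of the 46 with no region of either factor within 3000 bp. Among the 6 relatives with a TIFY motif or JAZ name, PPD1, PPD2 and TIFY8 reached first-listed JKD percentiles of 95.8, 95.8 and 97.6, and JAZ11, JAZ12 and JAZ13 were in the top 5% by none of the 4 values. By first-listed density 4 of the 6 were in the top 10% of each list, beside 19.6% (BLJ) and 19.4% (JKD) of all genes. JAZ13 was 1 of these 4, at 94.2 and 90.4. By second-listed density the count was 2 of 6 in each list, beside 22.2% and 20.0%.

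**Figure D5:**
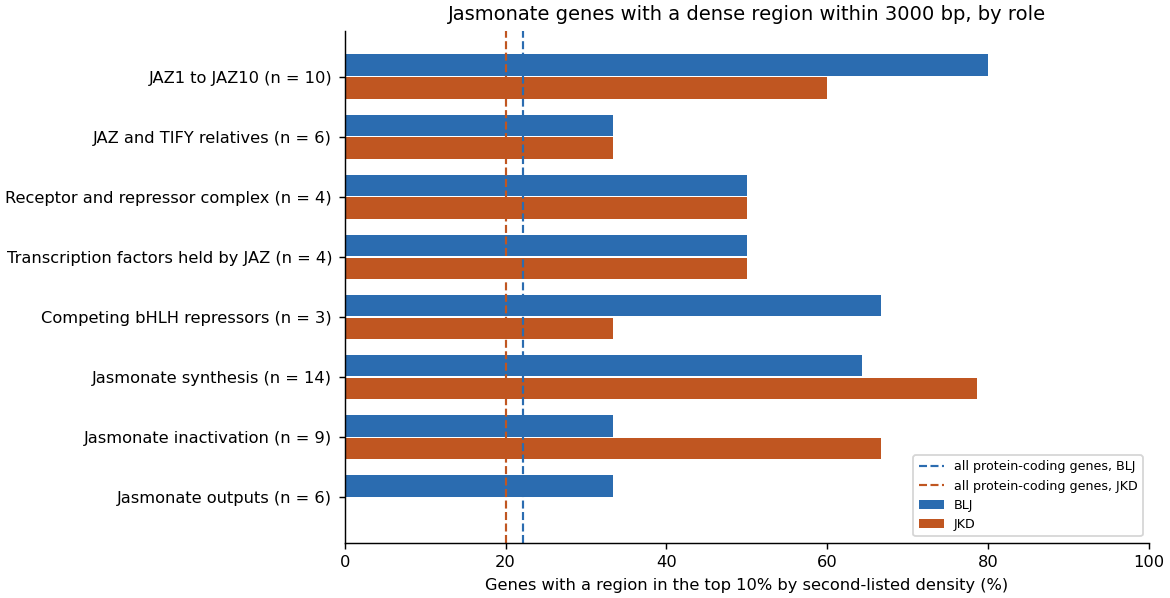
Share of genes (x axis, in percent) with a region within 3000 bp in the top 10% of the list by second-listed density, for JAZ1 to JAZ10 and for the other jasmonate genes by role, with BLJ in blue and JKD in orange. Dashed lines give the share over all protein-coding genes, 22.2% for BLJ and 20.0% for JKD. The JAZ bars stand for 8 and 6 of 10 genes, and the output genes have no JKD bar.

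Judged by the 4 percentiles within 3000 bp, JAZ9 had the highest mean of the family, 95.5. The genes nearest to JAZ9 over these 4 values by Euclidean distance were sought outside the jasmonate list and among genes not sharing its regions. They were AT4G12870, ENODL19 (AT4G12880) and AT4G12890, each at a distance of 1.64 percentile points. Each had values of 99.6 and 96.2 in the BLJ list, and of 93.3 and 94.5 in the JKD list. These 3 genes are neighbours with identical values.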

How the data were processed

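A table of regions for each factor, made from both replicates at once, is what the authors deposited. Per the labels' protocols, DNA was amplified linearly, tagged by transposon insertion and read from a single end for 50 bp. The submitters' processing notes name CASAVA, Bowtie and the build TAIR9, while the sources used here do not give the peak caller, the normalization or how the control was used. Per the file headers each region holds a density signal for the replicates, 2 positive numbers in each cell, and an IDR. The IDR is a deposited value from 0 to 1 and is not a p-value for binding.

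Genes came from an NCBI table of TAIR10.1, which has neither strand nor sequence. TAIR9 and TAIR10 share their nuclear assembly. In all 30 combinations of list and chromosome part, cover changed most steeply at gene edges at a shift of -100 to 100 bp, of shifts up to 3000 bp. The 2 BLJ libraries, the 2 JKD libraries and the wild-type library were grouped by title, and no test across samples was possible on 1 list per factor. A gene's best percentile is that of its densest region within 3000 bp, taken for each density by itself. The join of genes and regions was tested on simulated data. Named genes were all 10 members, jasmonate genes in the top 5% by any value or with no region, neighbours sharing a region, and the 3 genes nearest in pattern to the leading member. Those 3 were sought outside the jasmonate list and among genes not sharing regions with that member. Some other jasmonate genes were named beside them. Members and lists were chosen with earlier results of these data known. Intervals and floors were not computed, since no counts were given. The tools were matplotlib 3.10.9, scipy 1.17.1, numpy 2.4.6 and pandas 2.3.3 on Python 3.11.15.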

Additional observations from a re-analysis of the deposited data

How the results depend on the processing

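Of 66 recomputed values, 50 stayed near the main value and 16 moved. The limit for a count was 1.5 times. For a percentile it was the standard deviation of the first-listed and second-listed medians, 10.6 for BLJ and 2.18 for JKD. A change of the same size could therefore count as moved in the JKD list and not in the BLJ list. By first-listed BLJ density the count of JAZ genes in the top 10% was 4 in the main setting, beside 19.6% of all genes. It was 2 with overlapping regions, beside 8.02%, 2 with an IDR at or below 0.1, beside 5.71%, and 2 for the top 5%, beside 9.71%. The median percentile was 71.8 within 1000 bp, against 65.6 over all genes with such a region, and 57.8 with overlapping regions, against 58.1. At that IDR it was 62.7 over 7 members, against 53.6, and by the mean log2 of both densities 95.2, against 76.4. The count near a BLJ region of IDR at or below 0.05 was 7 at a limit of 0.1, beside 46.4% of all genes, and 0 at 0.01, beside 0.568%. By first-listed JKD density the count was 3 for the top 5%, beside 9.97% of all genes. The median was 92.9 over 7 members at an IDR at or below 0.1, against 81.7 over all genes with such a region. It was 94.5 by the mean of both, against 75.1, and 86.9 within width classes, against 73.7. By second-listed JKD density within width classes the count was 3, beside 18.0% of all genes, and the median 78.1, against 72.7. Overlapping regions of both factors at an IDR at or below 0.1 were at 5 genes, beside 18.8% of all genes. The cause of these moves was not tested. The counts by second-listed BLJ density lay between 6 and 8 under every alternative run, beside shares of all genes from 9.35% to 21.2%. No paired analysis was possible because each list holds both replicates together with no replicate number on its columns. Leaving out a replicate was likewise not run for the calling of regions, and each density by itself stands in for it. Depth is unknown, and the wild-type library was not analysed here, so no density has a control value beside it.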
